A study of Mus musculus with 12 samples.

Results

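miR-423-5p and miR-423-3p are the strands of 1 hairpin, the precursor miR-423, and they behaved differently in the 12 serum libraries of this series. Their entries were 3 of the 1340 miRNA entries in the data: mmu-miR-423-5p (MIMAT0004825) and mmu-miR-423-3p (MIMAT0003454) among 874 mouse miRNAs, and hsa-miR-423-3p (MIMAT0001340) among 466 human miRNAs. They were chosen by accession, with their measured loss on depletion and their measured change after tumour cell injection already known, so the values of these contrasts are given as a description without a test. Serum came from 3 female athymic immunodeficient NCr nude mice (mice 1046, 1047 and 1069; 4 to 6 weeks old when the xenografts were made), before and 2 weeks after implantation of SH-SY5Y cells, an established human neuroblastoma line, beneath the renal capsule. RNA isolation started from 50 μl of serum, and each of the 6 sera gave 1 depleted and 1 undepleted library, whose RNA is called an aliquot here. Whether both came from a single isolation is not given in the sources used here. In the depleted aliquot, targeted 5′ tRNA fragments, which hold the 5′ part of a tRNA, had been hybridized to biotinylated DNA probes and captured on streptavidin beads. The protocol also included heating, slow cooling and ethanol precipitation. The undepleted aliquot had no capture step. In the paper's test of the beads on pooled serum of other mice, removal was not complete. The series thus held 4 groups of 3 libraries, in which each depleted library has an undepleted counterpart from the same serum. All mice received tumour cells by surgery between the draws. Tumour growth, the surgery, the earlier draw and the time between the draws therefore cannot be told apart. The host also lacks normal T cells.

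A miRNA precursor is an RNA hairpin from which a short duplex is cut. One strand of the duplex, named 5p or 3p after its arm of the hairpin, is loaded into an Argonaute protein and guides it to mRNAs through its seed, whereas the other strand is often degraded. Both strands of some hairpins are kept, and each then has its own targets. In serum, miRNAs circulate bound to proteins or inside vesicles, and blood cells are a major source of them.

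The mature sequences below are shown because the probes act on sequence, and the strands of a hairpin are near-complements that differ in base composition. They are given 5′ to 3′, with the seed (bases 2 to 8) in capitals, from the RefSeq annotation of GRCm38.p6.
mmu-miR-423-5p: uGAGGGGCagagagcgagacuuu
mmu-miR-423-3p: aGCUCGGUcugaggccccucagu
miR-423-5p lies at chr11:77078122-77078144 and miR-423-3p at chr11:77078086-77078108, both on the minus strand. The seed of miR-423-5p was found in 1 other mouse mature miRNA of this annotation, mmu-miR-6921-5p, and that of miR-423-3p in none. Neither mature sequence was found in a second hairpin. Both are 23 bases long, but 43.5% of the bases of miR-423-5p are G and 69.6% are purines, compared with 30.4% and 43.5% for miR-423-3p. This G content was above that of 85.9% of the 1679 mouse mature miRNAs in RefSeq. GC content was 56.5% for miR-423-5p and 65.2% for miR-423-3p, the latter above that of 87.6% of mature miRNAs. The probe sequences were not used here, and pairing of either strand with a probe was not tested.

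The hairpin, Mir423, is shown to place both strands, which are in capitals in the order 5p and 3p.
mmu-mir-423: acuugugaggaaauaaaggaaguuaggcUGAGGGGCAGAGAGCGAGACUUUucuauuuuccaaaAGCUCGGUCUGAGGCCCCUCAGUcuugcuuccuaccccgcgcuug
It spans 109 bases at chr11:77078064-77078172 (GRCm38.p6, minus strand), with miR-423-5p at positions 29 to 51, miR-423-3p at positions 65 to 87 and 13 bases between them. In the structure of lowest free energy (-51.9 kcal/mol, RNAfold), 17 of the 23 bases of miR-423-5p paired with miR-423-3p. The hairpin lies in the intron between exons 1 and 2 of Nsrp1, which encodes a nuclear speckle splicing regulator, 206 bases after exon 1 and on the same strand, and overlaps no exon of that gene.

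Depth differed strongly between aliquots. Depleted libraries held 938706 to 2271549 mouse miRNA counts and undepleted libraries 21235 to 97183, the smallest being that of mouse 1069 before injection. A miRNA was called changed at a DESeq2 adjusted p-value under 0.05 together with a change of at least 2-fold. Values are given in CPM, the counts of a miRNA per 1000000 mouse miRNA counts of its library, which are shares: a higher share of 1 miRNA lowers the others, and more of a miRNA cannot be told apart from less of the rest. Replicates within a group are the sera of separate mice.

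Both strands were found in each of the 12 libraries, and in undepleted serum miR-423-5p was by far the more abundant. Before injection, the undepleted aliquots of mice 1046, 1047 and 1069 held 2317, 1845 and 374 counts of miR-423-5p. The corresponding counts of miR-423-3p were 183, 130 and 29. Scaled to depth, miR-423-5p stood at 23842, 20500 and 17612 CPM and ranked between 8th and 15th among mouse miRNAs over the 6 undepleted libraries. miR-423-3p stood at 1883, 1444 and 1366 CPM, and ranked between 29th and 53rd in these libraries. The lowest value of miR-423-5p in any undepleted library was therefore far above the highest of miR-423-3p, 4591 CPM.

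In undepleted serum after injection, miR-423-5p was counted 1611, 1440 and 1431 times in mice 1046, 1047 and 1069, or 23643, 27717 and 28942 CPM. miR-423-3p was counted 255, 200 and 227 times, or 3742, 3850 and 4591 CPM. The ranges of miR-423-5p before and after injection overlapped, whereas all 3 values of miR-423-3p after injection were above all 3 values before.

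In depleted serum the order of the strands was no longer fixed. Before injection, miR-423-5p was counted 6075, 9426 and 3635 times, or 4506, 5177 and 3872 CPM. miR-423-3p was counted 3005, 4917 and 1697 times, or 2229, 2700 and 1808 CPM. The 5p strand was still the higher one in each of these 3 libraries. After injection, the depleted aliquots held 8510, 7893 and 9940 counts of miR-423-5p, or 4778, 4533 and 4376 CPM. They held 7888, 9545 and 12638 counts of miR-423-3p, or 4428, 5481 and 5564 CPM. Here the 3p strand was the higher one in mice 1047 and 1069, and the 5p strand in mouse 1046.

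**Figure D1:**
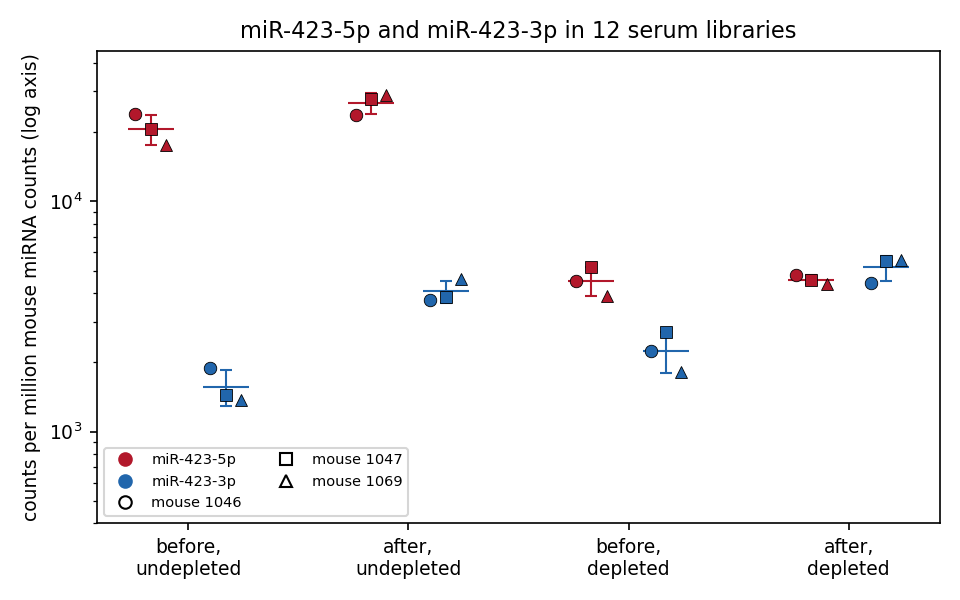
CPM relative to all mouse miRNA counts (log axis) of miR-423-5p (red) and miR-423-3p (blue) in the 12 libraries, with the mean and SD of 3 mice per group as horizontal and vertical lines and the mouse as the symbol. The red points lie between 17612 and 28942 without depletion and between 3872 and 5177 with depletion, whereas the blue points are higher after injection than before it in both arms.

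The first question was how each strand responded to the depletion. On average, the share of miR-423-5p was 20651 ± 3117 CPM undepleted and 4518 ± 652 CPM depleted before injection, and 26767 ± 2775 and 4562 ± 202 CPM after injection (SD, n = 3 each). The groups with and without depletion did not overlap at either time point. For miR-423-3p the corresponding values were 1564 ± 279 and 2246 ± 447 CPM before injection, and 4061 ± 462 and 5158 ± 633 CPM after injection (SD, n = 3 each). Within each serum the depleted aliquot held a lower share of miR-423-5p, by 3.96- to 6.61-fold with a geometric mean of 5.17-fold over the 6 sera. It held a higher share of miR-423-3p, by 1.18- to 1.87-fold with a geometric mean of 1.35-fold. The strands of 1 hairpin thus moved in opposite directions in 6 of 6 sera on this scale.

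In raw counts both strands were higher in the depleted aliquot of each serum, but by unlike factors. Set against the gain of all counts, these factors are the CPM changes above in another form. All mouse miRNA counts together were 13.9, 20.2 and 44.2 times as high in the depleted aliquot before injection (mice 1046, 1047 and 1069) and 26.1, 33.5 and 45.9 times after injection. The count of miR-423-3p was 16.4, 37.8 and 58.5 times as high before and 30.9, 47.7 and 55.7 times after injection. That of miR-423-5p was only 2.62, 5.11 and 9.72 times as high before and 5.28, 5.48 and 6.95 times after injection. The geometric means over the 6 sera were 28.2 for all miRNAs, 37.9 for miR-423-3p and 5.45 for miR-423-5p. miR-423-5p was therefore still gained in counts, but less than the rest of the library in each serum.

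Among the 115 mouse miRNAs whose normalised count averaged 50 or more (abundant miRNAs below), miR-423-5p had the lowest gain in each of the 6 sera. The median gain of these miRNAs was 14.7, 22.3 and 51.3 before and 29.4, 36.4 and 48.8 after injection, for mice 1046, 1047 and 1069. The gain of miR-423-3p was above the median in all 6 sera and exceeded that of 72, 103 and 73 of the 115 miRNAs before injection, and of 64, 84 and 77 after injection. The 3p strand thus stood among the other miRNAs, and the 5p strand at the end of the range.

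**Figure D2:**
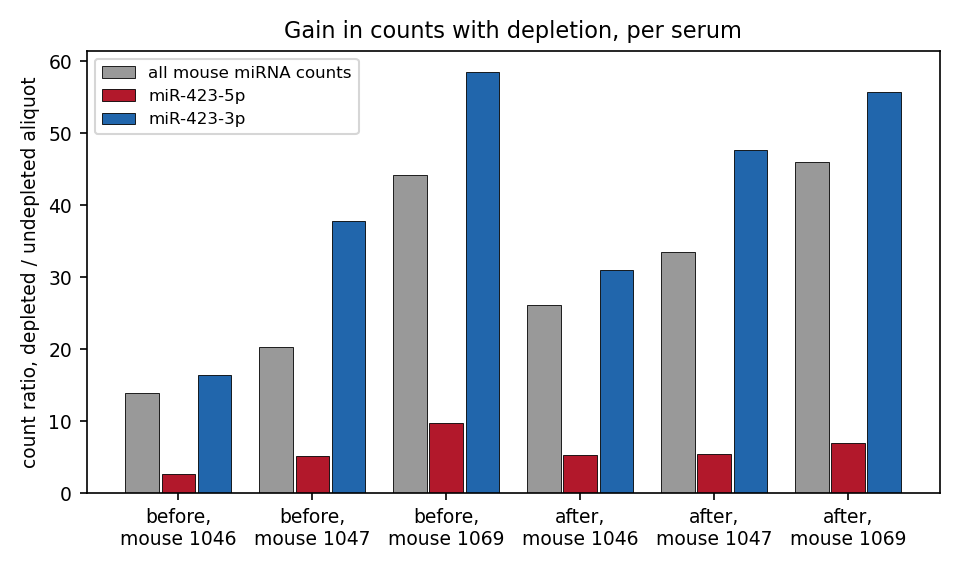
Ratio of raw counts in the depleted to the undepleted aliquot of each of the 6 sera, for all mouse miRNA counts (grey), miR-423-5p (red) and miR-423-3p (blue). The red bar is the lowest in each serum, at 2.62 to 9.72, and the blue bar is above the grey one in each serum.

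In the fit of all 12 mouse tables with time point as covariate, the log2 fold change with depletion was -2.46 (SE 0.18) for miR-423-5p and 0.30 (SE 0.19) for miR-423-3p. Of the 2 mouse entries, miR-423-5p was called lower and miR-423-3p was not called, in a fit that called 32 of 383 tested miRNAs (8.36%). Nothing is read from this count, since the members were selected on this contrast. The 115 abundant miRNAs had a median log2 fold change of -0.01, a 5th percentile of -0.99 and a 95th percentile of 1.38. miR-423-5p was the lowest of these 115, the next being MIMAT0000523 at -1.74 (SE 0.19), and miR-423-3p was higher than 83 of them. Among all 383 tested miRNAs, which include ones with few counts, miR-423-5p was the 5th lowest. Fitted before injection alone, the values were -2.13 (SE 0.33) and 0.46 (SE 0.36), and after injection alone -2.67 (SE 0.10) and 0.22 (SE 0.17). The value of miR-423-3p was thus less than 2 SE from 0 in these fits. With serum as a replicate block, which uses the pairing of the aliquots, it was 0.30 (SE 0.11) over all 12 tables, 0.48 (SE 0.19) before and 0.21 (SE 0.11) after injection, and it stayed under 2-fold and was not called. In the fit of all 12 tables its normalised count was higher in the depleted aliquot in 6 of 6 sera. In the fit after injection alone it was higher in 2 of 3 sera.

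**Figure D3:**
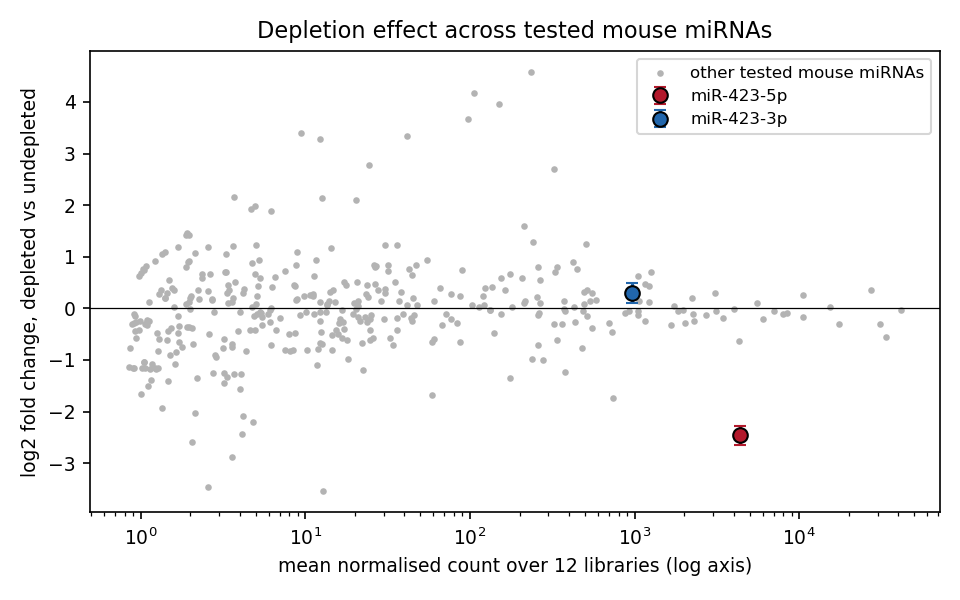
Log2 fold change with depletion against the mean normalised count over the 12 libraries (log axis) for the 383 tested mouse miRNAs, with miR-423-5p in red and miR-423-3p in blue and bars of 1 SE. Among abundant miRNAs, the red point at -2.46 lies below all others, and the blue point at 0.30 lies within the main band.

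An interaction term was fitted for whether the depletion effect differed between time points. It is built from contrasts that were known when the strands were chosen. Its values for the strands are therefore a description without a p-value. The interaction was -0.45 (SE 0.35) for miR-423-5p and -0.24 (SE 0.40) for miR-423-3p on the log2 scale. DESeq2 called none of the 874 mouse miRNAs (0%) at an adjusted p under 0.05, with 3 at an unadjusted p under 0.05. edgeR also called 0, with 11 at an unadjusted p under 0.05. With serum as a replicate block the estimates were similar and their SE smaller. The interaction of miR-423-5p was then -0.44 (SE 0.15), and that of miR-423-3p was -0.28 (SE 0.21). This fit called 0 miRNAs, with 8 at an unadjusted p under 0.05. The loss of miR-423-5p was thus estimated as larger after injection than before in both fits, but this difference was called in neither.

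The ratio of miR-423-5p to miR-423-3p within a library does not depend on depth or scaling. It was 12.7, 14.2 and 12.9 in undepleted serum before injection and 6.32, 7.20 and 6.30 after injection, for mice 1046, 1047 and 1069. In depleted serum it was 2.02, 1.92 and 2.14 before and 1.08, 0.827 and 0.787 after injection. The 4 groups did not overlap, with means of 13.25 ± 0.82, 6.61 ± 0.51, 2.03 ± 0.11 and 0.897 ± 0.158 (SD, n = 3 each). As a share of the counts of both strands, miR-423-5p made up 93.0% ± 0.40 in undepleted serum before injection and 86.8% ± 0.86 after injection (SD, n = 3 each). In depleted serum it made up 66.9% ± 1.23 before and 47.1% ± 4.23 after injection (SD, n = 3 each). Even in the smallest library, with 29 counts of miR-423-3p, the share was 92.8% with a 95% Wilson interval of 89.9% to 94.9%, which covers counting error only.

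Depletion shifted the log2 ratio of the strands by -2.80 ± 0.24 (SD, n = 6 sera from 3 mice; range -3.12 to -2.55), equal to a 6.96-fold lower ratio. By time point it was -2.71 ± 0.16 before and -2.89 ± 0.30 after injection (SD, n = 3 each). The shift was 6.26-, 7.40- and 6.02-fold before injection and 5.86-, 8.71- and 8.02-fold after injection in mice 1046, 1047 and 1069. The ranges at the time points overlapped. After injection, the strand with more counts was the 5p strand without depletion and the 3p strand with depletion in mice 1047 and 1069.

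**Figure D4:**
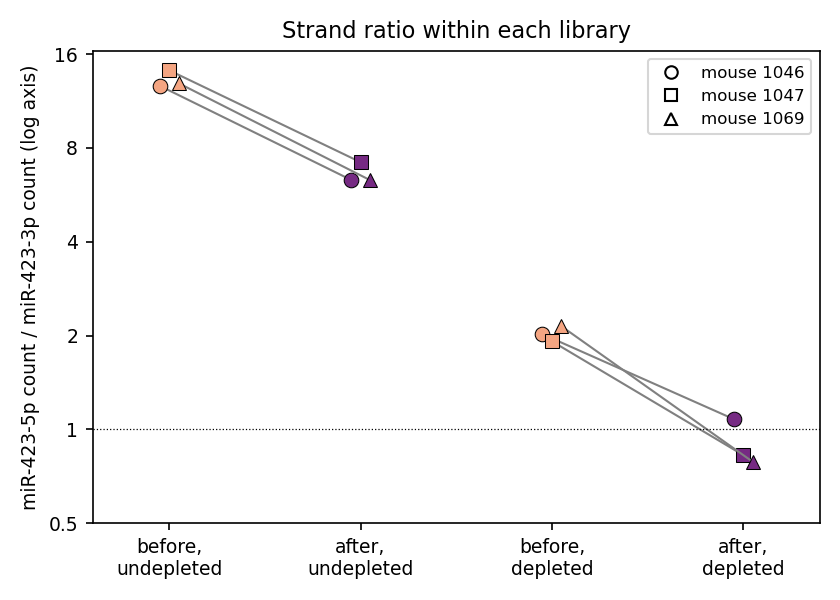
Ratio of miR-423-5p to miR-423-3p counts in each library (log axis), before (orange) and after injection (purple), with lines joining the values of 1 mouse within an arm and a dotted line at equal counts. The ratio is 12.7 to 14.2 before injection without depletion and 0.787 to 1.08 after injection with depletion, and each of the 6 lines descends.

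The second question was how each strand changed after tumour cell injection. The share of miR-423-3p was higher after injection in 3 of 3 mice in both arms. In depleted aliquots it was 1.99, 2.03 and 3.08 times as high in mice 1046, 1047 and 1069, and in undepleted aliquots 1.99, 2.67 and 3.36 times. The share of miR-423-5p was 1.06, 0.876 and 1.13 times its earlier value in depleted aliquots, and 0.992, 1.35 and 1.64 times in undepleted aliquots. The share of the 3p strand was thus at least 1.99 times as high in each mouse and arm, whereas the values of the 5p strand lay on both sides of no change. The depleted and undepleted aliquots hold RNA of the same sera and are no independent replicates of this change.

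In the fit of depleted mouse tables, the log2 fold change after injection was 0.83 (SE 0.28) for miR-423-3p and -0.27 (SE 0.26) for miR-423-5p. Neither was called, in a fit that called 33 of 310 tested miRNAs (10.6%). In undepleted tables it was 1.14 (SE 0.27) for miR-423-3p, which was called higher, and 0.23 (SE 0.24) for miR-423-5p, which was not, where 12 of 108 tested miRNAs were called (11.1%). The members were selected on these contrasts too, so the counts are given for orientation. Among miRNAs averaging 50 or more normalised counts in the respective fit, miR-423-3p had the 23rd highest value of 213 in depleted and the 5th highest of 68 in undepleted serum, where the medians were -0.12 and 0.00. The call in undepleted serum was lost without mouse 1047 (1.14) and without mouse 1069 (0.88). With library totals as size factors, miR-423-3p was also called in depleted serum (1.14) and the value of miR-423-5p there was 0.013 instead of -0.27. The value of miR-423-5p in undepleted serum was -0.022 without mouse 1069, so no direction is given for this strand.

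**Figure D5:**
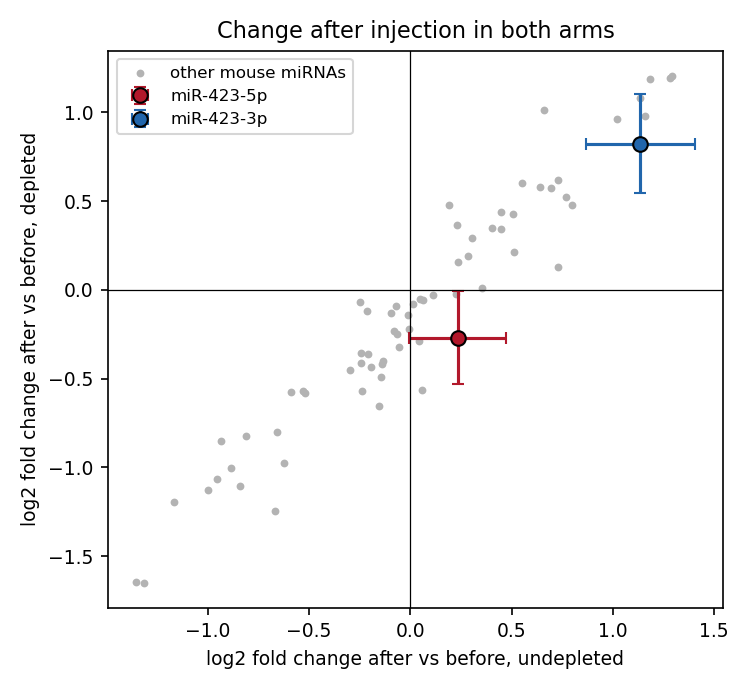
Log2 fold change after against before injection in depleted (vertical axis) and undepleted libraries (horizontal axis) for 68 mouse miRNAs averaging 50 or more normalised counts in both arms, with miR-423-5p in red, miR-423-3p in blue and bars of 1 SE. The blue point lies at 1.14 and 0.83 in the upper right, whereas the red point lies at 0.23 and -0.27 on opposite sides of 0.

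Since both strands were counted in the same libraries, the strand ratio gives the difference between their changes without normalisation. After injection the log2 ratio was lower in the undepleted aliquots of all mice, with a shift of -1.00 ± 0.03 (SD, n = 3; range -1.03 to -0.98), or 2.01-fold. These libraries held only 29 to 255 counts of miR-423-3p, and counting error is larger than so small an SD. The close values are therefore not read as a uniform shift between mice. In depleted aliquots the shift was -1.19 ± 0.27 (SD, n = 3; range -1.45 to -0.91), or 2.28-fold. The range in depleted aliquots included that in undepleted ones, so a shift of the ratio in the same direction was seen in aliquots with and without the loss of miR-423-5p. With 3 pairs no exact test of this shift could reach p = 0.05, and none was made.

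The human tables gave the same picture for miR-423-3p because they hold the same counts. hsa-miR-423-3p (MIMAT0001340) had the count of the mouse entry in 12 of 12 libraries, 40714 in total. Reads were mapped without mismatches to each genome, so a read of a sequence present in both species is counted in both tables. Release from the human tumour cells and from the mouse host therefore cannot be told apart for this strand. The human entry taken as miR-423-5p (MIMAT0004748) was matched on its counts, which equalled those of the mouse entry in 11 of 12 libraries and differed by 1 count in all (54496 against 54497). This entry was named after its values had been seen.

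The scaling and the set of miRNAs fitted and tested together differ between the tables. The log2 fold changes of hsa-miR-423-3p were close to those of the mouse entry. With depletion the value was 0.33 (SE 0.19), not called, in a fit with 23 of 414 miRNAs called (5.56%). After injection it was 0.88 (SE 0.29) in depleted tables, under 2-fold and so not called, where 23 of 323 were called (7.12%). In undepleted tables it was 1.16 (SE 0.26) and called, as were 9 of 89 (10.1%). The last call was lost without mouse 1047 (1.16) and without mouse 1069 (0.93), as in the mouse tables. MIMAT0004748 had a log2 fold change of -2.41 with depletion. These values come from the same reads and are no second measurement.

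Taken over the 12 libraries of both arms, which come from 6 sera, the patterns of the strands were not alike. Pearson's r between log2(normalised count + 1) of miR-423-5p and miR-423-3p was -0.10. By likeness to its partner strand miR-423-3p, miR-423-5p ranked 62nd of 114 abundant miRNAs. The loss of miR-423-5p with depletion, known when the strands were chosen, enters this r, which is therefore no separate evidence. Within a single arm r was not computed, so whether the strands vary together between sera is not answered. The patterns most like miR-423-5p were those of MIMAT0000523 (r = 0.92) and MIMAT0000387 (r = 0.88). Their log2 fold changes with depletion were -1.74 (SE 0.19) and -0.98 (SE 0.17), below the median of -0.01 but above that of miR-423-5p. The patterns most like miR-423-3p were those of MIMAT0000565 and MIMAT0000140 (r = 0.96 each). After injection, MIMAT0000565 had log2 fold changes of 1.19 (SE 0.26) in depleted and 1.28 (SE 0.31) in undepleted serum, and MIMAT0000140 of 1.08 (SE 0.27) and 1.13 (SE 0.27), compared with 0.83 and 1.14 for miR-423-3p. The libraries share sera and the depletion step, so these correlations describe the libraries and carry no p-value. The miRNAs were picked by likeness over the same libraries, so fold changes near those of the strands follow in part from that choice.

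miR-16-5p (MIMAT0000527), which is abundant in red blood cells, also moved with time point. Its share was 165887 ± 18368 CPM before and 89634 ± 16546 CPM after injection in undepleted serum, and 119916 ± 9896 and 66875 ± 10443 CPM in depleted serum (SD, n = 3 each). The groups did not overlap in either arm, and the direction was opposite to that of miR-423-3p. miR-16-5p was not stable to depletion either, with a log2 fold change of -0.56 (SE 0.16), under 2-fold and so not called. Shares of a library add up to a fixed total, miR-16-5p takes a large part of it, and its part in the higher share of miR-423-3p was not tested.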

How the data were processed

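The 12 aliquots were sequenced as TruSeq small RNA libraries. The authors trimmed adaptors with Cutadapt 1.8.1, filtered reads on base quality, mapped them with Bowtie 1.1.2 without mismatches to GRCm38 (mouse) and GRCh37 (human), and assigned them to miRBase miRNAs by coordinates. The deposited values are raw counts per mature miRNA, in 1 mouse and 1 human table per library, and a miRNA without an entry was taken as 0. The treatment of reads with several loci is not given in the sources used here.

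Counts were fitted with DESeq2 1.42.0 in R 4.3.3 (median-of-ratios size factors, Wald test with zero-centred prior, independent filtering), the study's tool, as the main test. Depletion was fitted on 12 tables with time point as covariate, injection within each arm, and the interaction without the prior. Adjusted p-values are Benjamini-Hochberg over all tested miRNAs of a table. Alternatives were edgeR 4.0.16, TMM factors, library totals, a low-count filter (4 or more counts in 3 or more libraries), no prior, a replicate block and leaving out each mouse. The main, edgeR and replicate-block fits were also run on simulated counts, drawn with the same dispersion for all miRNAs and no serum or mouse effect. No conclusion is drawn from that run. The labels pair the samples: aliquots share a serum and sera share a mouse. Deviations from group means correlated with r = 0.43 to 0.62 between aliquots of a serum, and -0.45 to 0.05 between sera of a mouse (115 miRNAs). CPM, ratios and correlations were computed in Python 3.11.15.

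The members and lists were chosen with earlier results of these data known. Named besides the members were, by rule, the miRNAs with the highest correlation to a mouse member (the first 2 of 3 are printed), miR-16-5p, whose accession the study gives, and the human miR-423-5p entry. No table used here pairs the other accessions with names, so the marker list (1 of 10 matched), the hairpins with both strands measured and the seed-sharing miRNA were not analysed here. Sequences are from RefSeq (GRCm38.p6), Nsrp1 exons from GENCODE M21, and the structure from RNAfold 2.7.2.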

Additional observations from a re-analysis of the deposited data

How the results depend on the processing

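Of 148 alternative values of the 18 results on the strands and their ratio, 140 kept their direction and, for fitted values, their call. Values of the strand ratio have no call and were counted as kept when they moved by less than the SD between sera or mice. The human-table results among them rest on the same counts and are no separate support. The causes of the exceptions were not tested. With library totals as size factors, miR-423-5p after injection in depleted serum turned from -0.27 to 0.013, and miR-423-3p became called there (1.14; 1.54 in the human table). Leaving out each mouse gave -0.022 to 0.46 for miR-423-5p in undepleted serum, and 0.88 to 1.33 for miR-423-3p (0.93 to 1.36 in the human table), whose call was lost without mouse 1047 and without mouse 1069. Numbers called ranged, without 1 mouse, from 19 to 33 for depletion, and after injection from 11 to 32 (depleted) and 1 to 11 (undepleted), and in the human tables from 6 to 17 and 1 to 8. In the human tables library totals called 46 depleted and 16 undepleted, and edgeR 43 and 15, against 23 and 9. The balance of calls changed with the size factors, and with edgeR, which differs in its test as well. For depletion, 19 higher and 13 lower became 32 and 10 with TMM factors, which moved the median of abundant miRNAs from -0.01 to 0.26, and 34 and 10 with edgeR. After injection in depleted serum, 15 higher and 18 lower became 32 and 5 with library totals, and for human entries 17 and 6 became 44 and 2, 14 and 7 with TMM factors, or 26 and 17 with edgeR. In undepleted serum, 9 and 3 became 8 and 5 with TMM factors and 9 and 6 with edgeR, and for human entries 6 and 3 became 6 and 7 with TMM factors, 15 and 1 with library totals and 6 and 9 with edgeR. With TMM factors, whose median was 0.26, the fitted values with depletion were 0.56 for miR-423-3p and -2.19 for miR-423-5p. With the replicate block (serum, or mouse), depletion gave -2.47 (SE 0.10) for miR-423-5p and 0.30 (SE 0.11) for miR-423-3p, injection gave 1.12 for miR-423-3p in undepleted serum, and no call of a strand changed. Depth limits the undepleted libraries most, with 29 counts of miR-423-3p in the smallest.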
